A study of Mus musculus with 2 samples.

Results

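The complement system is a set of blood and tissue proteins that mark and attack microbes and cell debris. This account follows 9 of its genes through single cells of inflamed mouse retina: C1qb, C1qc, C1ra, C1s1 and C4b of the classical pathway, C3 and Cfb of the central and alternative steps, and the regulators Serping1 and Cd59a. They were picked by symbol from the 32245 gene symbols of the count tables, and all 9 were found. Both groups were injected in the vitreous with lipopolysaccharide (LPS, a bacterial cell wall component) at 0.5 µg per eye. The control library came from Atg5fl/fl mice, which carry a floxed Atg5 allele and no Cre. The knockout library came from GLAST-CreER; Atg5fl/fl mice given 4-hydroxy-tamoxifen, in which the Slc1a3 (GLAST) promoter drives an inducible Cre in Müller glia, the radial glia of the retina. Each group was 1 library of 6 pooled retinas, so no value has a replicate check, there is no test between groups, and genotype, Cre and drug cannot be told apart. The sources used here give neither the age of the mice nor the time from injection to harvest.

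In the classical pathway, C1q (chains C1qa, C1qb and C1qc) binds a target and the protease C1r activates the protease C1s. C1s cuts C4 and C2, and the products cut C3. In the alternative pathway, factor B (Cfb) joins cleaved C3 to make another enzyme that cuts C3. Serping1 (C1 inhibitor) blocks C1r and C1s, and Cd59a is a membrane protein that stops the last, pore-forming step. In the retina, C1q is known from microglia and infiltrating macrophages, while glia and pigment epithelium are known sources of C3 and other early components.

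The promoters shown are those of 4 genes that were each highest in another of the named cell classes with at least 50 cells per library (C3 in neutrophil-like, C1s1 in endothelial-like, C1qb in monocyte and macrophage-like and Cd59a in cone-like cells). They are the 250 bases before the start site (RefSeq, GRCm38.p6, 5′ to 3′ on the gene's strand), and capitals mark matches to the motifs searched. RefSeq entries were matched for 6 of the 9 genes, all but C4b, Cfb and Serping1. The motifs, searched on both strands, were TTNNGNAA (a C/EBP-type site), GAGGAA (a PU.1-type site), GAAA, NN and GAAA in a row (an interferon response element), TTCNNNGAA (a STAT-type GAS site) and the kappaB site.
C3 (chr17:57228137-57228386, minus strand): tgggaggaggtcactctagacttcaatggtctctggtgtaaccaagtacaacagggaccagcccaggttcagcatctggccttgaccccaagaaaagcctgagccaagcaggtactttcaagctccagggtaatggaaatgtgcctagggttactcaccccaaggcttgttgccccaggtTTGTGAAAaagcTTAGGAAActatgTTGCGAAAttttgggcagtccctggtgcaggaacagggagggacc
C1s1 (chr6:124542360-124542609, minus strand): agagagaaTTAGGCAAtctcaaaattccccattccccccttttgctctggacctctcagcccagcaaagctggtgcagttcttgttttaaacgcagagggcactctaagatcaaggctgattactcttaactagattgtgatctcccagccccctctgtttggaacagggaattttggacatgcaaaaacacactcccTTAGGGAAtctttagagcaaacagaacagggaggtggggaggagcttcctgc
C1qb (chr4:136886201-136886450, minus strand): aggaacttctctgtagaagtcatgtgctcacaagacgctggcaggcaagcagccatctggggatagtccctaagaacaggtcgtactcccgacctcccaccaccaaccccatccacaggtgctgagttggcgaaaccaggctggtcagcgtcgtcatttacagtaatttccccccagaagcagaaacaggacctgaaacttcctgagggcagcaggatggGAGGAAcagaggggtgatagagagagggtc
Cd59a (chr2:104095551-104095800, plus strand): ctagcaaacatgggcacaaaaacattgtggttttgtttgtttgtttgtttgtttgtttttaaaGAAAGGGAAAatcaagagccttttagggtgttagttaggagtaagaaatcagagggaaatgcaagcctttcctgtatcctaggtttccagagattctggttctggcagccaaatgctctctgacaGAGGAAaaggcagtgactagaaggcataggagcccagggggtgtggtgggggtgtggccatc
The C3 window held 3 C/EBP-type matches within 70 bases of the start and none of the other motifs. At least 1 such match was found in 36.8% of 32851 promoter windows of this length, and 3 or more in 2.61%. The C1s1 window held 2 C/EBP-type matches, and the window of another listed C1s1 start, not shown, held 1. C1qb held 1 PU.1-type match, 30 bases before its start, as did 23.3% of all windows. Cd59a held 1 PU.1-type match and 1 interferon response element, the latter found in 2.98% of windows. A match is a description of the letters and not a shown binding site.

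The control library held 43669961 unique molecular identifiers (UMIs, counted RNA molecules) in 8690 barcodes and the knockout library 50676223 in 5229, of which 8274 and 4662 were kept as cells. The libraries shared 15 barcodes. Cells were clustered without complement genes and named from marker lists, and 39.0% of control and 30.6% of knockout cells stayed unnamed. Levels are UMIs per 1000000 UMIs of a class (CPM), with 95% exact Poisson intervals that cover counting error only. The highest and the next class of a gene are ranked among the 8 named classes with at least 50 cells in each library, and smaller classes and an unnamed cluster, led by Chil1 and Orm1, are given apart. Müller glia-like cells numbered 334 (control) and 509 (knockout), with all 10 marker genes detected in both. Atg5 was at 20.4 CPM (17.1 to 24.3) in control cells and 18.6 CPM (16.2 to 21.2) in the knockout Müller glia-like cells, a ratio of 0.910 (0.728 to 1.14). These are 3′ end counts, which need not fall when an inner exon is lost, so they do not check the deletion.

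C1qb and C1qc, which lie 3616 bp apart on chromosome 4 (mm10, C1qb 136880129 to 136886187 and C1qc 136889804 to 136893065), were found almost wholly in monocyte and macrophage-like cells. This class held 95.4% of the control library's C1qb UMIs and 97.8% of the knockout's, from 1.12% and 1.09% of the cells. C1qb stood there at 522 CPM (493 to 552) in control cells and 576 CPM (534 to 622) in knockout cells. C1qc stood at 252 CPM (232 to 273) and 281 CPM (252 to 314). The next class for C1qb was rod-like cells in the control, at 7.60 CPM, and endothelial-like cells in the knockout, at 4.23 CPM, so the class with C1q was 68.7-fold and 136-fold above the next. Those next values came from few cells: 20 of the 29 C1qb UMIs in control rod-like cells lay in the 73 cells of cluster 20, led by Ccl12, and the 9 UMIs in knockout endothelial-like cells lay in 1 cell. Müller glia-like cells had 1 C1qb UMI in each library, and the C1qb count in 106 cells of the cluster led by Chil1 and Orm1, described further on, was 0.

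C1qb was not in every cell of the class. It had a UMI in 31.2% of the 93 control cells and 47.1% of the 51 knockout cells, against 0.440% and 0.285% of rod-like cells, which should lack it. Median depth was 22286 and 21543 UMIs in the C1q class and 1118 and 995 in rod-like cells. After thinning every cell to 1000 UMIs the shares were 22.6% and 27.5% of monocyte and macrophage-like cells and 0.372% and 0.575% of rod-like cells. The chains were found in the same cells. Of the 53 cells with a C1qb UMI, 47 had C1qc and 38 had C1qa, while of the 91 cells without, 1 had C1qc and 0 had C1qa.

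**Figure D1:**
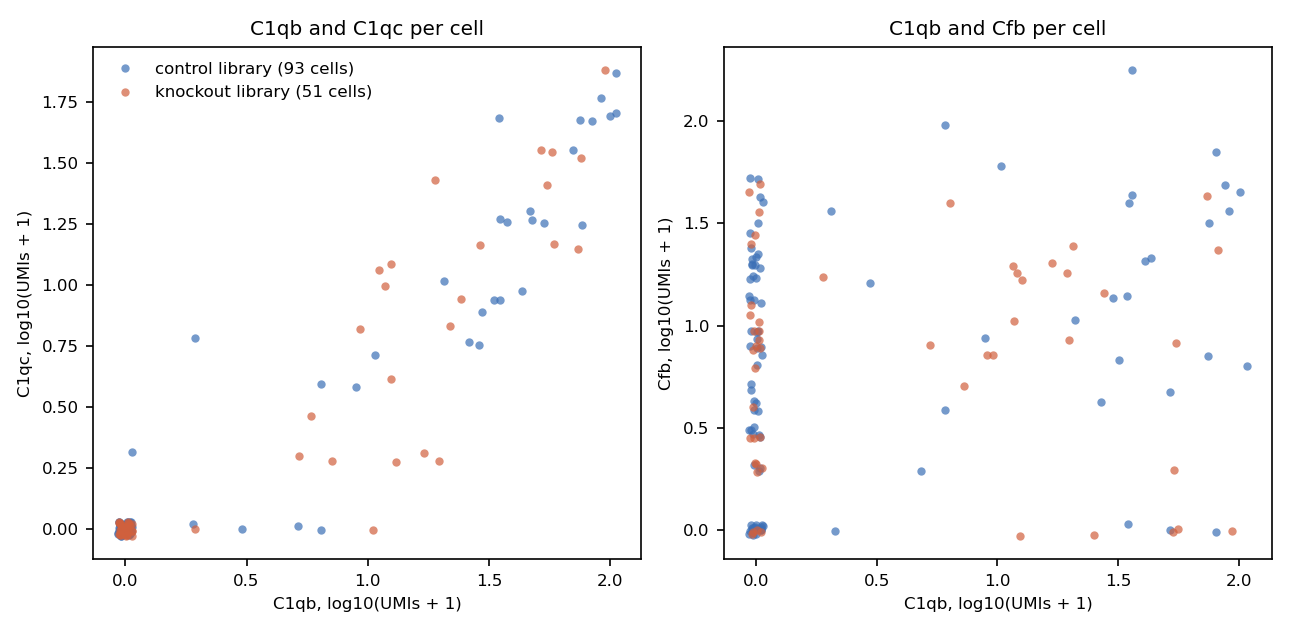
Each point is 1 monocyte and macrophage-like cell, placed by its C1qb UMIs (x axis, log10 of UMIs + 1) and by its C1qc (left) or Cfb UMIs (right) on the same scale, with a small random offset to part equal values. C1qc follows C1qb from cell to cell, while Cfb is found in cells with and without C1qb.

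The 40 cells with at least 10 C1qb UMIs, a cut made on these same cells and so a description, had C1qb at 1449 CPM over both libraries. Genes known from microglia and resident macrophages were set beside the 91 cells with none, by library. Tmem119 was at 38.1 against 8.59 CPM in the control and 18.7 against 3.95 CPM in the knockout library, and Cx3cr1 at 121 against 68.0 CPM and 173 against 79.0 CPM. Ms4a7 stood at 143 against 16.5 CPM and 31.2 against 15.8 CPM, and Olfml3 at 35.4 against 0.716 CPM in the control, with 3 UMIs in 1 knockout cell. P2ry12 went opposite ways, at 23.6 against 7.16 CPM (control) and 6.24 against 23.7 CPM (knockout), as did Mrc1, at 6.56 against 36.5 CPM and 12.5 against 0 CPM, while Siglech, Sall1 and Gpr34 were under 3 CPM in every set. The monocyte genes also differed by library: Ly6c2 was at 672 against 662 CPM (control) and 562 against 274 CPM (knockout), Ccr2 at 205 against 251 CPM and 293 against 209 CPM, and Lyz2 at 8007 against 4343 CPM and 3844 against 4879 CPM. The clustering did not part microglia from monocytes and macrophages: the sum over 8 microglial markers was 281 CPM (control) and 323 CPM (knockout), and that over 10 markers of monocytes and macrophages 8585 and 7003 CPM. Neutrophil markers summed to 2029 and 5768 CPM in this class, and their part in the values was not tested.

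C1ra and C1s1, the proteases C1r and C1s, are neighbours on chromosome 6 (C1ra 124512405 to 124523443 and C1s1 124530345 to 124542359), 6901 bp apart, and had unlike distributions among the classes. Among the ranked classes, C1ra was highest in Müller glia-like cells, at 97.2 CPM (89.7 to 105) in control cells and 114 CPM (108 to 121) in knockout cells. Endothelial-like cells came next, at 40.1 CPM (31.4 to 50.4) and 72.4 CPM (61.4 to 84.8), and every other class of at least 50 cells per library was under 10 CPM. C1s1 was highest among them in endothelial-like cells, at 33.5 CPM (25.6 to 43.1) and 36.7 CPM (29.0 to 45.8), above Müller glia-like cells at 10.4 CPM (8.02 to 13.2) and 11.2 CPM (9.39 to 13.4). For both genes the intervals of the leading 2 classes did not overlap in either library. The endothelial-like class also held pericyte markers, which summed to 1957 CPM (control) and 1615 CPM (knockout). In Müller glia-like cells that sum was 49.8 and 42.0 CPM. The part of pericyte RNA in the endothelial-like values was not tested. The few pericyte-like cells (13 and 3) stood higher, with C1ra at 130 CPM (62.4 to 239) and 862 CPM (413 to 1585), from 10 UMIs each, and C1s1 at 117 CPM (53.6 to 222) and 689 CPM (298 to 1358). Both genes have a near copy: C1ra shares 23.4% of the 31-base words of its last 500 transcript bases with C1rb, and C1s1 shares 27.7% with C1s2. Those copies had 13 and 7 UMIs in all kept cells, against 5303 and 2156 for C1ra and C1s1, and the sources used here do not say how reads that match both were counted. C1s1 also overlaps the antisense gene Gm16567.

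C4b (chromosome 17, 34728380 to 34743882) carries the next step, C4. Among the named classes it was nearly confined to Müller glia-like cells in these libraries. It stood at 154 CPM (145 to 164) in control cells and 102 CPM (96.6 to 108) in knockout cells. Rod-like cells came next at 6.29 CPM (4.03 to 9.35) and 10.6 CPM (3.90 to 23.2), which makes Müller glia-like cells 24.5-fold and 9.62-fold higher. Of the rod-like C4b UMIs, 8 of 24 (control) and 4 of 6 (knockout) lay in the 73 and 52 cells of cluster 20. The other classes of at least 50 cells per library were under 5 CPM. C4b shares 57.7% of the words of its last 500 transcript bases with C4a, which had 87 UMIs in all against 4053 for C4b, so a part of the C4b signal could belong to C4a and the split is uncertain.

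C3 (chromosome 17, 57203970 to 57228136), on which all complement pathways meet, was spread over glia and white blood cells among the ranked classes. Neutrophil-like cells had 416 CPM (387 to 446; control) and 354 CPM (322 to 388; knockout). Müller glia-like cells followed at 335 CPM (321 to 350) and 300 CPM (290 to 310), and monocyte and macrophage-like cells at 186 CPM (169 to 205) and 133 CPM (113 to 156). The intervals of these 3 classes were apart in each library, with neutrophil-like cells 1.24-fold and 1.18-fold above Müller glia-like cells. C3 had a UMI in 54.8% of control and 69.0% of knockout Müller glia-like cells, against 3.45% and 5.41% of rod-like cells. At 1000 UMIs per cell, which left out 1 control Müller glia-like cell and 1071 control and 177 knockout rod-like cells, these shares were 17.4% and 17.7% against 2.60% and 1.15%. In the control library, 26.1% of the C3 UMIs of Müller glia-like cells lay in 5 cells, against 12.7% in the knockout library.

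Cfb (chromosome 17, 34856374 to 34862518), the protease of the alternative pathway, was highest among the ranked classes in monocyte and macrophage-like cells. It reached 616 CPM (584 to 649) in control cells and 487 CPM (448 to 529) in knockout cells. Müller glia-like cells had 168 CPM (158 to 178) and 139 CPM (133 to 146), and endothelial-like cells 68.2 CPM (56.7 to 81.3) and 124 CPM (110 to 140). Neutrophil-like cells, the ranked class with most C3, had 22 CPM and 8.43 CPM of Cfb. The 13 and 3 pericyte-like cells, too few to be ranked, held 8 Cfb UMIs of 76828 and 12 of 11604. In the knockout library that share was above the one in monocyte and macrophage-like cells. Among monocyte and macrophage-like cells, Cfb was found in 44 of the 53 cells with C1qb and in 68 of the 91 without. The same-strand predicted gene Gm20547 shares exons with Cfb, so counts of these genes could be split.

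Serping1 (chromosome 2, 84765387 to 84775444) had its highest level among classes of at least 50 cells per library in Müller glia-like cells. It stood at 248 CPM (236 to 261) in control cells and 218 CPM (210 to 227) in knockout cells. Endothelial-like cells had 84.6 CPM (71.8 to 99.1) and 95.4 CPM (82.7 to 110), and bipolar-like cells 43.0 CPM (37.4 to 49.1) and 81.6 CPM (75.4 to 88.0). Some smaller classes were near or above Müller glia-like cells, though horizontal-like cells were lower in the control library. The 31 and 39 horizontal-like cells had 183 CPM (158 to 211) and 232 CPM (207 to 259), and the 13 and 3 pericyte-like cells had 286 and 1465 CPM from 22 and 17 UMIs. In monocyte and macrophage-like cells, Serping1 was all but missing, with 2 UMIs in control cells and 0 in knockout cells, which allows up to 2.60 CPM at the limit of 3 counts.

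Cd59a (chromosome 2, 104095801 to 104115354) was highest in cone-like photoreceptors. They had 452 CPM (410 to 496; control) and 490 CPM (442 to 541; knockout), with a UMI in 65.3% and 68.6% of cells. That is 9.13-fold and 7.67-fold above the next of the ranked classes, which was endothelial-like in the control (49.5 CPM) and rod-like in the knockout library (63.8 CPM). Endothelial-like and rod-like cells had overlapping intervals. The 31 and 39 horizontal-like cells, too few to be ranked, came nearer to the cones, at 173 CPM (149 to 200) and 124 CPM (105 to 144). Müller glia-like cells had 16.6 CPM (13.6 to 20.1) and 7.85 CPM (6.31 to 9.65). Its copy Cd59b shares 0 words of the last 500 bases and had 380 UMIs in all, against 3194 for Cd59a.

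**Figure D2:**
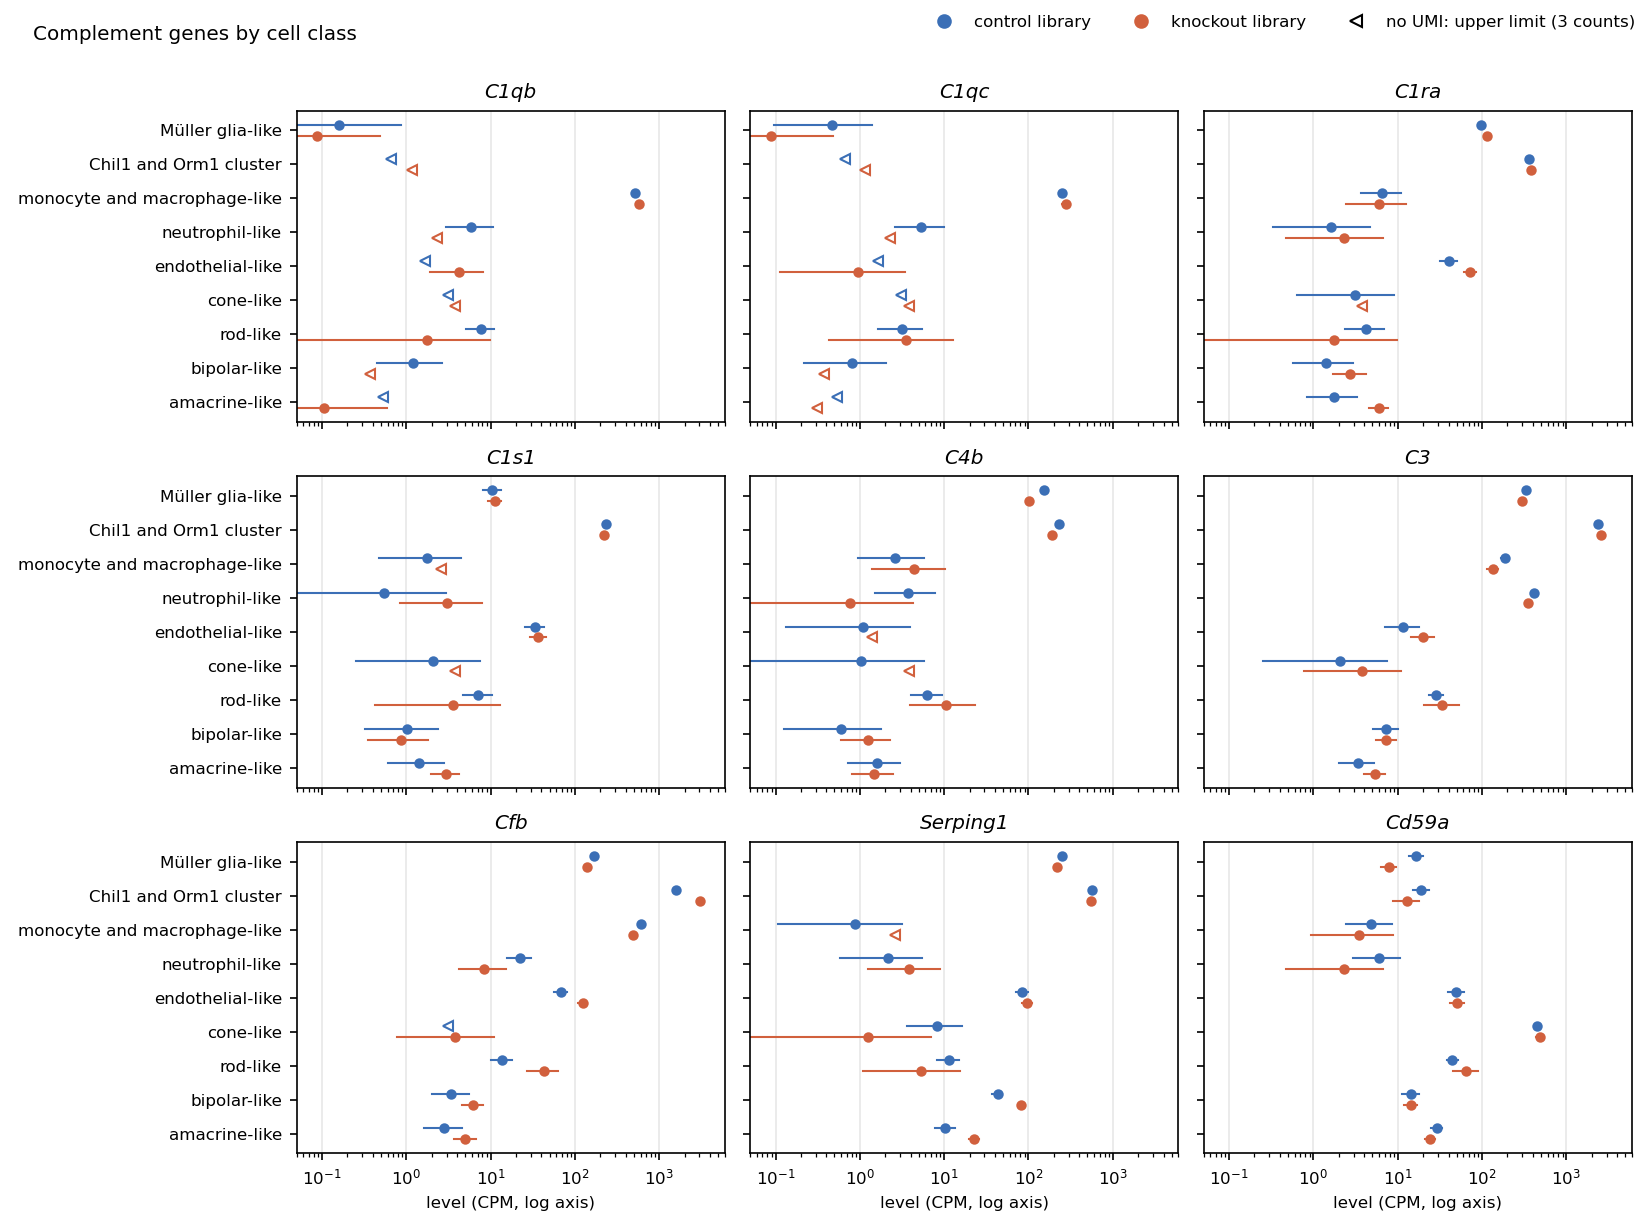
Level of each gene (x axis, CPM, log scale) in the classes with at least 50 cells in each library and in the Chil1 and Orm1 cluster. Points are the 2 libraries, bars are 95% Poisson intervals and open triangles mark the limit that 0 UMIs allow. C1qb and C1qc stand in 1 class, C4b in Müller glia-like cells and the Chil1 and Orm1 cluster, and Cd59a in cone-like cells.

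A small cluster of 106 cells, 59 in the control (0.713% of cells) and 47 in the knockout library (1.01%), held most of the C3, Cfb and C1s1 UMIs of the kept cells. Its leading genes were Chil1, Lcn2, C3, Cfb, Cp and Orm1, several of them known acute phase genes. It was formed without complement genes, but a rule set after the data were seen kept it out of the Müller glia-like class, because at least 25% of the class's markers, Rlbp1 among them (9.56 CPM in control cells and 10.4 CPM in knockout cells), were under 10% of their usual level in it. The 10 Müller markers together still summed to 8331 and 8703 CPM, and 6 fibroblast markers to 263 and 201 CPM, against 18.4 and 17.0 CPM in Müller glia-like cells. The sum over 5 astrocyte markers was 349 and 389 CPM, against 59.7 and 42.2 CPM in Müller glia-like cells. The astrocyte genes Pax2 and Slc7a10 and the fibroblast gene Col3a1 had no UMI in the cluster. It is given no cell type name here.

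In this cluster C3 reached 2390 CPM (2345 to 2435) in control cells and 2600 CPM (2538 to 2663) in knockout cells, 7.13-fold and 8.68-fold above Müller glia-like cells. The cluster held 73.1% of the control library's C3 UMIs and 57.9% of the knockout's. Cfb reached 1587 CPM (1551 to 1624) and 3015 CPM (2949 to 3083), which is 9.46-fold and 21.6-fold above Müller glia-like cells. C1s1 showed the widest gap in the control library, 231 against 10.4 CPM or 22.3-fold, and was 19.9-fold higher in the knockout library. C1ra was 3.74-fold and 3.35-fold higher, Serping1 2.27-fold and 2.51-fold, and C4b 1.51-fold and 1.88-fold. Cd59a, at 18.9 CPM (control) and 12.8 CPM (knockout), was 1.13-fold (0.843 to 1.52) and 1.63-fold (1.06 to 2.45) higher. C1ra and C1s1, apart among the ranked classes, were both high in this cluster.

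Within the Müller glia-like class the C3 level followed the subclusters. The class was split into 6 subclusters, and their make-up differed between libraries. Control cells lay mostly in subclusters 4 (24.6% of the class), 1 (24.3%) and 3 (21.6%), knockout cells in 0 (39.3%), 2 (26.7%) and 1 (26.5%). Subcluster 4, with 82 control cells and 1 knockout cell, had the highest levels of the Müller genes Rlbp1 (994 CPM) and Glul (4527 CPM) and the lowest level of Lcn2, a secreted acute phase protein (973 CPM), in the control library. C3 there was 67.9 CPM, Cfb 41.8 CPM and C1ra 39.5 CPM, while C4b was 183 CPM. In subcluster 1, with Lcn2 at 44918 CPM in control cells and 38670 CPM in knockout cells, C3 was 510 and 507 CPM and Cfb 242 and 199 CPM. Subcluster 5 had C3 at 546 and 428 CPM. C4b spanned a narrower range: over the subclusters with at least 20 cells in a library it lay between 73.5 CPM (knockout, subcluster 0) and 183 CPM (control, subcluster 4). Cd59a was highest in subcluster 5, at 34.9 CPM (control) and 49.9 CPM (knockout). Subcluster 3 was shallow, with median depths of 3884 and 1740 UMIs.

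**Figure D3:**
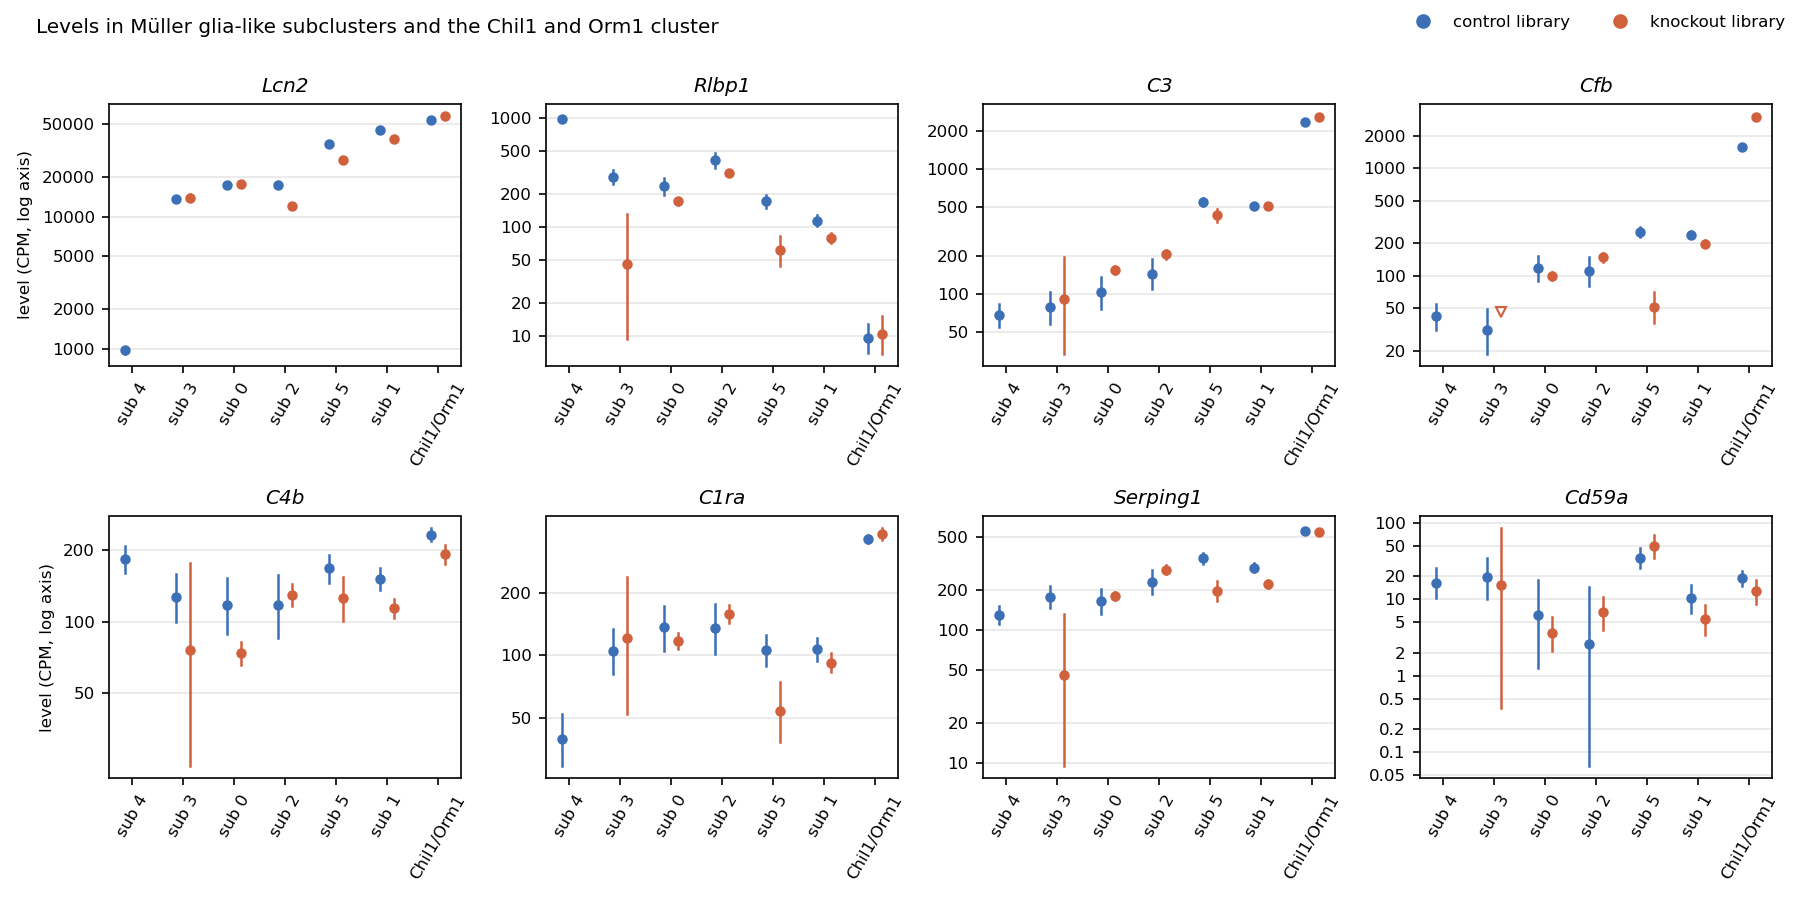
Levels (y axis, CPM, log scale) of Lcn2, the Müller gene Rlbp1 and 6 complement genes in the Müller glia-like subclusters (sub), ordered from low to high C3 over both libraries, and in the Chil1 and Orm1 cluster. Bars are 95% Poisson intervals, the open triangle is the limit that 0 UMIs allow, and subcluster 4 of the knockout library (1 cell) is not drawn. In the control library C3 runs from 67.9 CPM in subcluster 4 to 546 CPM in subcluster 5, with 510 CPM in subcluster 1, while C4b stays within 117 to 183 CPM.

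The next comparison set the knockout against the control library within Müller glia-like cells, the cells in which the promoter of the Cre is known to act. Of the 9 genes, 7 passed a minimum of 100 UMIs over both libraries, 2 were at least 1.5-fold lower in the knockout library and 0 at least 1.5-fold higher. Over all 10549 genes with that many UMIs, 16.8% were at least 1.5-fold lower and 3.65% at least 1.5-fold higher. The median log2 ratio of the 7 genes was -0.18, beside -0.14 over all genes. Scaling by TMM factors, which shifts every log2 ratio in this class by 0.200, is therefore given where it moves a call.

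C4b was lower in the knockout library, with a ratio of 0.664 (0.610 to 0.724, exact conditional 95% interval). It missed the 1.5-fold mark under TMM scaling (0.763), in subcluster 1 alone (0.750), without subcluster 4 (0.697), without the cells of highest doublet score (0.668) and without 5 cells of most C4b UMIs per library (0.673), and stayed below 1 in each. Cd59a had a ratio of 0.471 (0.352 to 0.630), from 106 and 90 UMIs, and of 0.785 when cells were thinned. Rod genes moved the same way in these cells: the sum over 10 rod markers was 1920 CPM (control) and 664 CPM (knockout), while 8 cone markers were at 128 CPM in both. Subcluster 5, which had the most Cd59a and more of it in the knockout library, held 16.5% of control and 4.91% of knockout Müller glia-like cells. The part of the rod genes and of the subcluster shares in the Cd59a value was not tested. The summed Müller markers, too, went from 10173 to 6814 CPM, a ratio of 0.670, and 6 erythroid markers stood at 5.97 and 1319 CPM. Their part in the C4b value was not tested.

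The other 5 genes stayed within 1.5-fold. C3 had a ratio of 0.894 (0.847 to 0.944), Cfb 0.831 (0.769 to 0.899), Serping1 0.880 (0.826 to 0.938), C1ra 1.18 (1.07 to 1.3) and C1s1 1.08 (0.8 to 1.48). Under TMM scaling C3 (1.03) and Serping1 (1.01) lay just above 1 and Cfb (0.954) below it. For C3 and Cfb a few cells set the side of 1. Without the 5 cells of most UMIs per library the ratios were 1.03 (0.972 to 1.10) and 1.07 (0.971 to 1.17). Without subcluster 4, left out after the data were seen, they were 0.746 (0.706 to 0.789) and 0.701 (0.647 to 0.759). In subcluster 1 alone, with 81 and 135 cells, C3 was at 0.995 and Cfb at 0.821. Neutrophil markers in Müller glia-like cells summed to 245 and 78.1 CPM, and their part in the C3 value was not tested.

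**Figure D4:**
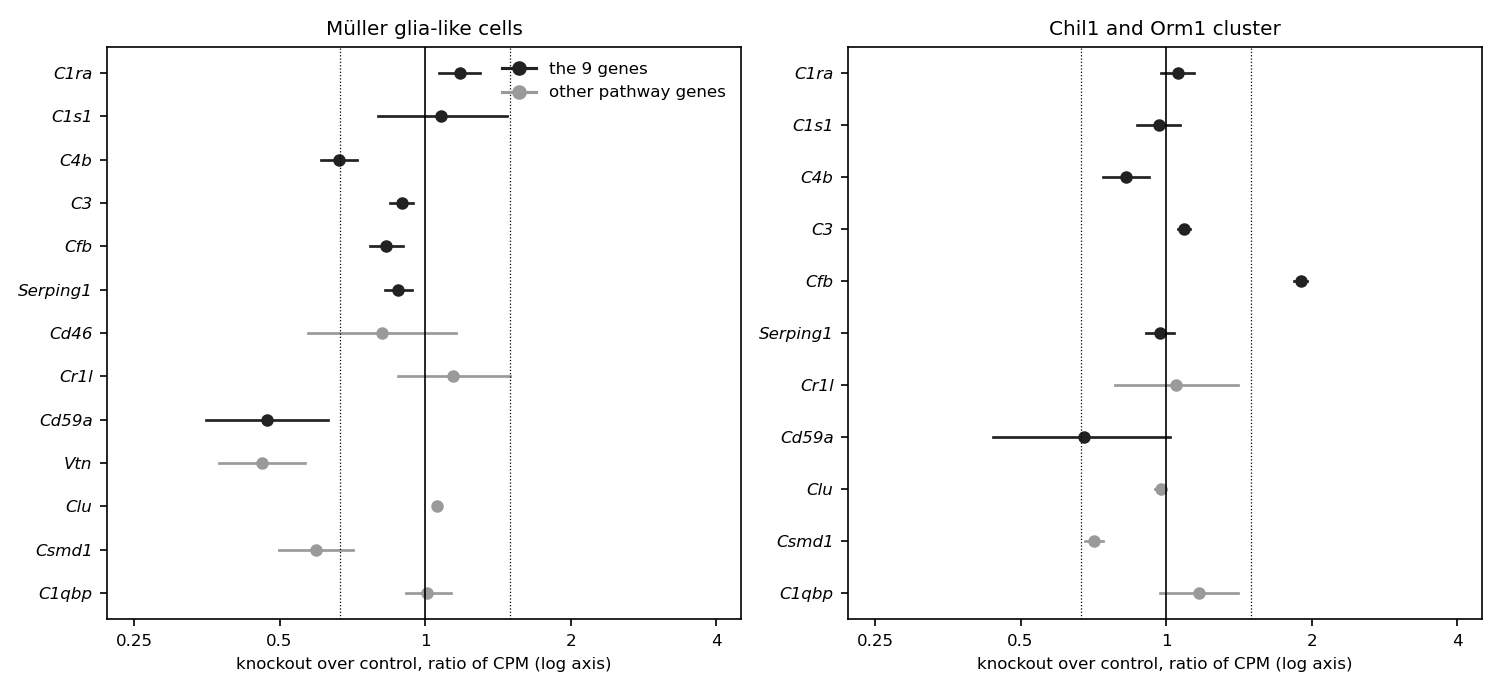
Ratio of knockout over control CPM (x axis, log scale) with exact conditional 95% intervals, for complement pathway genes past the minimum of 100 UMIs, among Müller glia-like cells (left) and the Chil1 and Orm1 cluster (right). Dotted lines mark 1.5-fold, black points the 9 genes and grey points other pathway genes. C4b, Cd59a, Vtn and Csmd1 lie past the lower line on the left, and Cfb past the upper line on the right.

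In the Chil1 and Orm1 cluster, 7 of the 9 genes had at least 100 UMIs and only Cfb passed 1.5-fold, with a ratio of 1.90 (1.84 to 1.96). The share of all genes at least 1.5-fold higher in this cluster was 3.64%, and at least 1.5-fold lower 7.71%. A single knockout cell held 2484 of the 7789 Cfb UMIs, and 5 cells held 53.3% of them, against 36.2% in the control library. Without 5 cells per library the ratio was 1.69 (1.62 to 1.77). Median depth in the cluster was 57763 UMIs in control cells and 26831 UMIs in knockout cells. Rod markers summed to 297 and 70.1 CPM, neutrophil markers to 93.4 and 154.5 CPM and erythroid markers to 2.00 and 33.7 CPM. The part of depth and of these markers in the cluster's ratios was not tested. C3 was at 1.09 (1.06 to 1.12), C1ra at 1.06 (0.976 to 1.14), C1s1 at 0.966 (0.871 to 1.07), Serping1 at 0.972 (0.910 to 1.04), C4b at 0.827 (0.741 to 0.921) and Cd59a at 0.676 (0.438 to 1.02).

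Among the other classes, endothelial-like cells (55 and 50 cells) had 5 of the 9 genes past the minimum, of which C1ra (1.80, 1.36 to 2.42) and Cfb (1.82, 1.47 to 2.27) were at least 1.5-fold higher in the knockout library, beside 2.48% of all genes. None of the 5 was at least 1.5-fold lower, beside 5.68% of all genes. Without 5 cells of most UMIs per library these ratios were 2.24 (1.54 to 3.31) and 3.94 (2.66 to 6.01). The neutrophil markers in this class summed to 2236 CPM in control cells and 65.3 CPM in knockout cells, rod markers to 485 and 71.0 CPM and erythroid markers to 1106 and 306 CPM. The class joined a shallower cluster, of 36 control and 22 knockout cells (median 10591 UMIs), and a deeper one, of 19 and 28 cells (53023 UMIs). Pericyte markers scored second in the deeper cluster and neutrophil markers in the shallower. Median depth of the class was 25240 UMIs (control) and 41135 UMIs (knockout). The part of these markers, of depth and of the cluster mix was not tested. C1s1 (1.09), Serping1 (1.13) and Cd59a (1.03) lay near 1 there.

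Serping1 was higher in the knockout library's bipolar-like and amacrine-like cells. The ratio was 1.90 (1.62 to 2.23) in bipolar-like cells, where 2.53% of all genes were at least 1.5-fold higher and 2.92% lower, and 2.20 (1.64 to 2.99) in amacrine-like cells, where 2.85% were higher and 2.41% lower. Cd59a, the only other of the 9 past the minimum in these classes, stayed within 1.5-fold, at 0.991 (0.731 to 1.35) and 0.828 (0.675 to 1.02). In bipolar-like cells Serping1 stood at 37.3 and 52.5 CPM in cluster 2, led by Cntn5, at 38.9 and 59.2 CPM in cluster 9, led by Pcp2, and at 55.7 and 125 CPM in cluster 7, led by Erbb4. Among amacrine-like cells, cluster 5, led by Ebf1, had 19.6 CPM (11.8 to 30.6) and 62.0 CPM (51.7 to 73.8), and cluster 4, led by Cartpt, 10.7 and 15.5 CPM. The other amacrine-like clusters were low in both libraries, at 4.66 and 3.18 CPM in cluster 10 and 3.34 and 3.84 CPM in cluster 18. Müller markers in bipolar-like cells summed to 146 CPM in control cells and 175 CPM in knockout cells, a ratio of 1.2. For amacrine-like cells that sum was 536 and 552 CPM. Rod markers were at 1439 and 530 CPM in bipolar-like and 977 and 224 CPM in amacrine-like cells, and erythroid markers at 1345 and 109 CPM and at 150 and 358 CPM. Their part in the Serping1 values was not tested. Leaving out 5 cells per library gave Serping1 ratios of 2.02 and 2.45.

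In monocyte and macrophage-like cells, 4 of the 9 genes had at least 100 UMIs, and 0 of 4 passed 1.5-fold in either direction, where 6.27% of all genes were lower and 3.42% higher. C1qb was at 1.10 (1.00 to 1.22), C1qc at 1.12 (0.972 to 1.28), Cfb at 0.791 (0.716 to 0.873) and C3 at 0.716 (0.591 to 0.862). C1q UMIs were gathered in few cells, with 39.9% of control and 51.8% of knockout C1qb UMIs in 5 cells, and without those the C1qb ratio was 0.940. In this class the Müller markers summed to 4266 and 1517 CPM, while neutrophil markers were at 2029 and 5768 CPM, and those of erythroid cells at 7 and 2436 CPM. Their part in the ratios, those of C3 and Cfb included, was not tested. In neutrophil-like cells only C3 passed the minimum, at 0.851 (0.756 to 0.956), where 15.5% of all genes were lower and 3.54% higher by the same mark. Neutrophil markers in neutrophil-like cells summed to 113493 CPM (control) and 153199 CPM (knockout). Rod markers were at 2994 and 672 CPM there and lens markers at 99.5 and 6.13 CPM, and their part was not tested. In cone-like cells only Cd59a passed the minimum, at 1.08 (0.943 to 1.25), where 3.47% were lower and 1.86% higher. In rod-like cells C3 was at 1.18 (0.684 to 1.93) and Cd59a at 1.43 (0.972 to 2.06), where 20.6% were lower and 13.2% higher. Without 5 cells per library both lay on the other side of 1, at 0.986 (0.520 to 1.73) and 0.825 (0.476 to 1.35). By cluster, Cd59a was at 44.6 and 42.7 CPM in rod-like cluster 1 and at 41.9 CPM (13.6 to 97.7) and 209 CPM (117 to 344) in the 73 and 52 cells of cluster 20. The erythroid markers summed to 59.5 and 19705 CPM in rod-like cells and to 16.6 and 9856 CPM in cone-like cells, and their part was not tested.

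The wider pathway was read from a list of 54 genes that includes the 9. A UMI was found for 52 of them, and the exceptions were Mbl1 and Cfd. Among Müller glia-like cells 13 passed the UMI minimum, of which 4 were at least 1.5-fold lower in the knockout library and 0 higher. Over all genes past that minimum, 16.8% were lower and 3.65% higher by the same mark. Under TMM scaling 2 of the 13 were lower. Beside C4b and Cd59a the 4 were Vtn, or vitronectin (0.459, 0.374 to 0.563), a secreted inhibitor of the last step, and Csmd1 (0.595, 0.499 to 0.709), a membrane regulator. By role, 1 of 3 classical genes, 0 of 2 central and alternative genes, 3 of 7 regulators and 0 of 1 receptor were lower. Clu (clusterin), another inhibitor of the last step, was abundant at 4011 CPM in control cells and 4248 CPM in knockout cells and lay at 1.06 (1.04 to 1.08). C1qbp, Cr1l and Cd46 lay at 1.01, 1.14 and 0.813. Vtn was at 33.5 and 15.4 CPM in Müller glia-like cells, at 279 and 482 CPM in rod-like cells and at 742 and 655 CPM in endothelial-like cells. The part of RNA from other classes in its Müller glia-like value was not tested.

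Of the 54 genes, 22 reached 50 CPM in a class with at least 50 cells per library, and their highest level lay in monocyte and macrophage-like cells for 7, in endothelial-like cells for 5, in Müller glia-like cells for 4, in neutrophil-like cells for 3, in cone-like cells for 2 and in amacrine-like cells for 1. C1qa, the third C1q chain, was at 338 CPM in control cells and 288 CPM in the knockout monocyte and macrophage-like cells. Cfp (properdin), which steadies the alternative pathway enzyme, was at 338 and 396 CPM there. The receptor C3ar1 was at 140 and 119 CPM and Itgb2 at 597 and 530 CPM in monocyte and macrophage-like cells, while C5ar1 was at 542 and 526 CPM and Itgam at 648 and 824 CPM in neutrophil-like cells. Endothelial-like cells led for Cd93 (750 and 935 CPM), Vtn (742 and 655 CPM), Cr1l (132 and 127 CPM) and C1qbp (109 and 90.7 CPM). Pericyte markers summed to 1957 and 1615 CPM in this class, and pericyte-like cells were too few to be ranked. The part of pericyte RNA in these values, that of Vtn included, was not tested. Susd4 was highest in cone-like cells (210 and 225 CPM) and Csmd1 in amacrine-like cells (736 and 568 CPM). Csmd1 was also at 1702 and 1209 CPM in the Chil1 and Orm1 cluster. None of the 7 terminal components (Hc, C6, C7, C8a, C8b, C8g and C9) passed 50 CPM in such a class.

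Each gene's profile over 10 classes in both libraries (20 points, which share libraries and differ in depth) was set against 11730 others by Pearson's r of log2 levels, as a description. The Chil1 and Orm1 cluster, with 73.1% of control and 57.9% of knockout C3 UMIs, was not among the 10 classes. The genes most like C3 were Arrdc4 (r = 0.969), Cd44 (0.963) and Mgst1 (0.961). Those most like C4b were the Müller genes Kcnj10 (0.986), Gfap (0.983) and Rlbp1 (0.980). Kcnj10 and Rlbp1 are among the markers that named the Müller glia-like class. In the Chil1 and Orm1 cluster, where Rlbp1 was low, C4b was at 233 CPM (control) and 192 CPM (knockout). C1qb was most like Tnip3 (0.987), F13a1 (0.983) and Msr1 (0.983) outside the 9, and its r with C1qc was 0.994. The C3 profile was more like that of Cfb (0.690) and C4b (0.604) than that of Serping1 (-0.102), and its r with Cd59a was -0.702. C1qb had an r of 0.705 with Cfb and of -0.0329 with C4b.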

How the data were processed

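Papain-dissociated retinal cells went into 10x 3′ v3.1 libraries, per the labels' protocols. The deposited values are raw UMI counts per gene and barcode, made by the authors with Cell Ranger 6.0.0 on mm10 per the submitters' processing notes, which also name Seurat 5.2.1. The sources used here name no annotation release. Of 32285 features, 40 repeated a symbol and were dropped.

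The study's stated filter was applied (mitochondrial share under 25%, 500 or more genes per cell). As cell types were not among the files, clusters were made anew (R 4.3.3, Seurat 5.3.0, 2000 variable genes less complement genes, 11 components, resolution 1.0, seed 1, and resolution 0.4 within Müller glia-like cells), and differences from the study may come from rebuilt names. Clusters were named from 21 marker lists, needing 3 detected markers and a score lead of 1, thresholds set after the data were seen, as was the rule that kept out a cluster with 25% of its class's markers under 10% of their usual level.

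Counts were added up over the cells of a class in each library, and the ratio intervals are exact and conditional on the total (scipy 1.17.1). A gene was called at 1.5-fold with at least 100 UMIs. This is a mark of size and not a test, with 1 library per group. Log2 ratios had 0.5 added to both counts. The ratio step was tested on simulated data. Scrublet (scanpy 1.11.5) called 0 cells in either library by its own threshold and so did not work, and no doublet was removed from the main values. TMM factors came from edgeR 4.0.16. Alternatives covered scaling, cell filter, class calls, thinning, single cells and subclusters.

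The 9 genes, the pathway list and the marker lists were chosen with earlier results of these data known. Named beside them were, in each role, the pathway genes with the largest and smallest ratio and highest level in Müller glia-like cells, those reaching 50 CPM, and the 3 genes most like C3, C4b and C1qb. Values of some single genes outside the 9 are not reported here, though counts over lists include them. Genes used to describe the Chil1 and Orm1 cluster, the subclusters and the cells with C1qb were chosen after their values were seen.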

Additional observations from a re-analysis of the deposited data

How the results depend on the processing

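No paired analysis was possible because each group is 1 library. The count of the 9 genes at least 1.5-fold lower in Müller glia-like cells, 2, was 1 under TMM scaling, with thinned cells, without 5 cells of most UMIs, without the cells of highest doublet score, in subcluster 1 alone and without subcluster 4, and 4 with the Chil1 and Orm1 cluster added. The count higher, 0, was 1 with thinned cells (C1s1 at 4.58, from few UMIs). For the 54 pathway genes, the count lower, 4, was 2 under TMM scaling and without 5 cells, and 8 with a minimum of 20 UMIs. The count higher, 0, was 1 with thinned cells and 1 with a minimum of 20 UMIs. Shares over all genes were counted only in the main setting. Genes highest in Müller glia-like cells, 3 in each library, were 5 (control) and 6 (knockout) with classes called cell by cell and without the cells of highest doublet score, settings in which endothelial-like and monocyte and macrophage-like cells no longer numbered 50 per library. They were 6 in each with the Chil1 and Orm1 cluster added. No called ratio changed sides of 1 in the 11 settings. Only subcluster 1 had at least 30 cells in each library, so no other subcluster was taken alone. C4b ran from 0.550 (thinned) to 0.763 (TMM scaling) and Cd59a from 0.313 (doublet scores) to 0.785 (thinned). C3 ran from 0.609 to 1.05, Cfb from 0.701 to 1.22, Serping1 from 0.737 to 1.08, C1ra from 0.791 to 1.38 and C1s1, with the widest range, from 0.494 (Chil1 and Orm1 cluster added) to 4.58 (thinned). The Chil1 and Orm1 cluster and subcluster 4 settings were chosen after seeing the data. In Müller glia-like cells C1qb (1 UMI in each library) and C1qc (3 and 1) had too few UMIs for a ratio, among 6365281 and 11466867 UMIs.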
